A study of Mus with 4 samples.

Results

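Of the m6A peaks called in interscapular brown adipose tissue (iBAT), those that cross at least 1 exon-exon boundary are described here. A peak was called spliced when its deposited position was made of 2 or more blocks, the stretches of exon that it covers, and unspliced when it was 1 block. The list of the control mice held 2840 spliced peaks among 18400, and the list of the *Wtap*-BKO mice held 3703 among 18693, in all 6543 of 37093 peaks. The samples were 1 m6A immunoprecipitate (IP) and 1 input of each genotype, each pooled from 8 mice aged 8 weeks, of strain C57BL/6 and on normal chow, and sequenced as paired reads of 150 bp. Both genotypes carried *Wtap* flox/flox alleles, whose exon 4 lies between loxP sites, and the *Wtap*-BKO mice also carried UCP1-iCre, which removes that exon in cells that express *Ucp1*. Other cells of the tissue, such as macrophages, lymphocytes, endothelial cells and fibroblasts, keep the gene, so the *Wtap*-BKO list is that of a mixed tissue. In bulk tissue, fewer cells of a type and less RNA per cell cannot be told apart.

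N6-methyladenosine (m6A) is the commonest internal mark of mRNA. It is written in the nucleus, while introns are being removed, by a complex in which METTL3 is the catalytic subunit, METTL14 its partner and WTAP the subunit that holds them in nuclear speckles, where splicing factors also gather. The mark is known to lie mostly in long internal exons and around stop codons in last exons, away from exon ends. MeRIP-seq pulls down fragments of poly(A)+ RNA with an antibody against m6A, and a peak is a stretch where IP reads exceed those predicted from the input. The fragments are longer than the mark, so a peak that spans a splice site shows where enriched fragments lay and not which exon carries the modified base.

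Depth and genotype limit what the lists can show. Peaks were called separately in each genotype, read totals are not held in the lists, and fold enrichments of the 2 lists share no scale, so each peak is ranked within its own list. Each genotype had 1 pooled sample, so the spread between mice is unknown and no test between genotypes was made. Intervals of shares are 95% Wilson intervals and those of differences 95% Newcombe intervals. For differences averaged over classes, weighted by the spliced peaks of each class, the intervals are 95% normal approximations. They hold for counting error alone, with each peak taken as independent of the rest. Transcript levels cannot be read from a peak, and where no peak is listed, none came past the threshold used in the calling. All 12 brown adipocyte markers, such as *Ucp1*, *Cidea* and *Adipoq*, had a peak in the control list and 11 in the *Wtap*-BKO list. Of 42 skeletal muscle genes 11 and 24 had one, of 13 macrophage markers 7 and 12, of 15 T/B lymphocyte markers 4 and 9, and of 8 fibroblast markers 8 and 8.

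*Wtap* itself carried spliced peaks. In the control list 2 of its 4 peaks were spliced, and in the *Wtap*-BKO list 1 of 4. The peak at chr17:12975250-12980836 of GRCm38, on the minus strand, had the same blocks in both lists, 225 bases and, across an intron of 5347 bp, a further 15 bases upstream. The control list gave it a log10 false discovery rate of −40.7, ahead of 86.4% of peaks, and the *Wtap*-BKO list one of −6.67, ahead of 51.8%. The other spliced control peak, at chr17:12967454-12969405, held 598 of its 599 bases in 1 block and a single base beyond an intron. On it lay an unspliced *Wtap*-BKO peak of 360 bases. Whether exon 4 lies in these blocks was not determined, because the gene table used holds no exons, so the deletion cannot be checked from them.

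Spliced peaks took 15.4% of the control list (interval 14.9% to 16%) and 19.8% of the *Wtap*-BKO list (interval 19.2% to 20.4%). These are also the shares that any group of genes is read against further on. The *Wtap*-BKO list thus held 1.30 times as many spliced peaks, and its share was 4.37 percentage points higher (interval 3.60 to 5.15). The difference was largest among peaks of over 150 and up to 300 exonic bases, of which 15.4% were spliced in the control list and 22.1% in the *Wtap*-BKO list. Among peaks over 600 bases the difference was 2.65 percentage points, with an interval from −0.297 to 5.63. Of the 5 equal parts of each list by false discovery rate, the strongest held the highest share of spliced peaks, 23.1% and 26.0%, and the weakest the lowest, 11.2% and 15.1%.

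**Figure D1:**
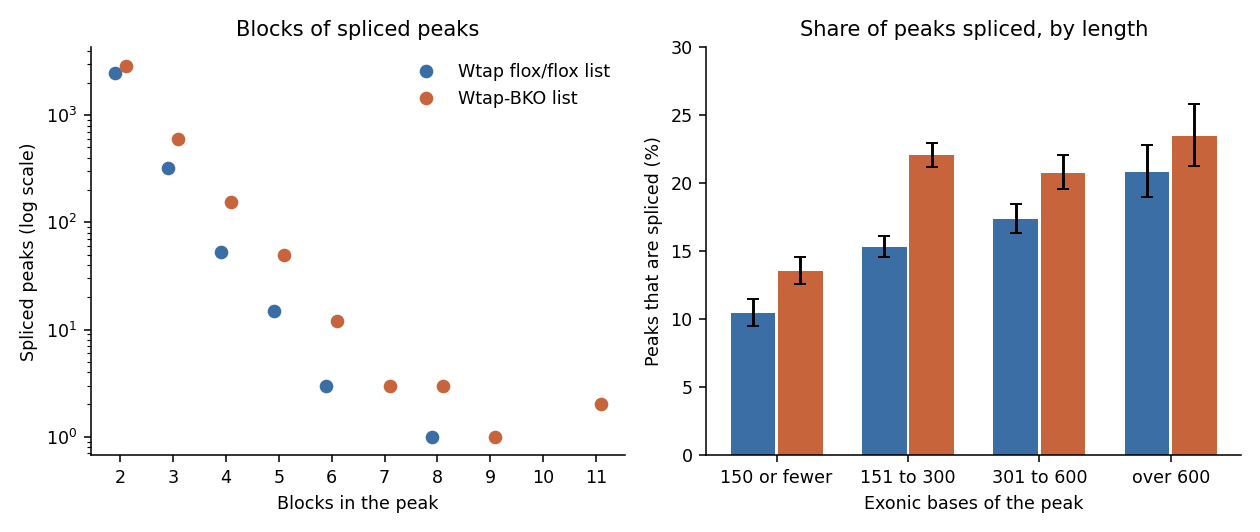
The left panel plots the number of spliced peaks (log scale) against their number of blocks, and the right panel the share of peaks that are spliced (%) in 4 classes of exonic length (bases), with bars of 95% Wilson intervals, in the control list (blue) and the *Wtap*-BKO list (orange). In each length class the *Wtap*-BKO share lies above the control share, and the intervals overlap among peaks over 600 bases.

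The median spliced control peak held 270 exonic bases (quartiles 180 and 442) and 1497 bp of intron (538 to 4086). In the *Wtap*-BKO list the median was 211 exonic bases (179 to 360) and 1505 bp of intron (521 to 4230). Unspliced peaks had medians of 240 and 210 bases, so spliced control peaks were longer than unspliced ones by 30 bases at the median and spliced *Wtap*-BKO peaks hardly so. Within each list spliced peaks had the lower fold enrichment and the stronger false discovery rate. The median fold enrichment in the control list was 5.92 for spliced and 6.75 for unspliced peaks, at median log10 false discovery rates of −12.3 and −7.21. In the *Wtap*-BKO list the fold enrichments were 4.34 and 4.74, and the log10 false discovery rates −8.11 and −5.91.

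The lengths followed the transcript and not the genome. The exonic bases came within 1 base of a multiple of 30 in 83.0% of spliced control and 85.5% of spliced *Wtap*-BKO peaks, near the 87.6% and 89.3% of unspliced peaks. For the genomic span of the same spliced peaks the shares were 9.26% and 10.3%. Peak lengths thus ran in steps of 30 bases along the exons, with introns not counted.

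Many spliced peaks reached only a little way into a second exon. The largest block held a median of 85.2% of the exonic bases in the control list and 75.8% in the *Wtap*-BKO list. The smallest block was under 30 bases in 51.1% and 46.8% of peaks, under 10 bases in 20.5% and 17.4%, and a single base in 73 and 75 peaks. At least 90% of the bases lay in 1 block in 40.8% of control peaks (interval 39.0% to 42.6%) and 26.8% of *Wtap*-BKO peaks (interval 25.4% to 28.3%). The bases of *Wtap*-BKO peaks were thus spread more evenly over their exons. Peaks of like length or block number were not compared in this. Among peaks of 2 blocks, the larger block lay on the 3′ side in 61.3% of the control list (interval 59.3% to 63.2%) and in 51.0% of the *Wtap*-BKO list (interval 49.2% to 52.8%).

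Peaks over many exons were more frequent in the *Wtap*-BKO list. It held 825 peaks of 3 or more blocks (22.3% of its spliced peaks) against 394 (13.9%) in the control list, and 226 against 72 of 4 or more. Inner blocks, with another block on either side, numbered 490 in the control list, with a median of 111.5 bases (67.5 to 158), and 1158 in the *Wtap*-BKO list, with a median of 113 (72 to 155). The medians lay near each other.

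*Eif3a*, which encodes the largest subunit of the translation initiation factor eIF3, had the peak with the most blocks of the control list. It covered 1885 bases in 8 blocks at chr19:60761954-60771056 on the minus strand, including 1 exon of 662 bases, and a second peak of 300 bases in 2 blocks followed upstream. The *Wtap*-BKO list had a single peak of 11 blocks and 2334 bases there, at chr19:60762073-60772959, which ran over both control peaks and shared 1766 bases with the first. In log10 false discovery rate it stood at −179, ahead of 99.0% of its list, and the 8-block control peak at −175, ahead of 98.1%. What was broken into 2 peaks in the control list was thus 1 peak in the *Wtap*-BKO list.

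*Cgnl1*, which encodes the junction protein paracingulin, showed the same arrangement. Its *Wtap*-BKO peak of 11 blocks and 1378 bases crossed 72605 bp of intron, and control peaks of 4 blocks (300 bases) and 5 blocks (599 bases) lay within it. *Abcf1*, of an ABC protein that acts in translation, had a *Wtap*-BKO peak of 9 blocks and 811 bases over control peaks of 2 and 5 blocks. *Smc1a*, of the cohesin complex, went the other way, with 6 blocks and 898 bases in the control list and peaks of 4 and 3 blocks in the *Wtap*-BKO list. *Rbm25*, a splicing regulator, had 6 blocks in both lists, with 900 and 930 bases. *Srrm2*, a large nuclear speckle protein, had 6 blocks and 749 bases in the control list, on which the *Wtap*-BKO list had a peak of 5 blocks and an unspliced one of 420 bases. These genes, like *Eif3a*, were named for the most blocks in a list, so that list tends to hold the longer peak. Which list held the unbroken peak is thus partly set by the choice.

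*Tnnt3*, the troponin T of fast skeletal muscle, had peaks of 8 blocks in the *Wtap*-BKO list alone. They covered 210 and 598 bases, with inner blocks of 8 to 43 and of 41 to 117 bases, and no peak of the control list lay on the gene. At log10 false discovery rates of −31.0 and −23.8 they ranked ahead of 87.6% and 83.5% of the list. Peaks on other muscle genes are given with the sarcomere list.

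**Figure D2:**
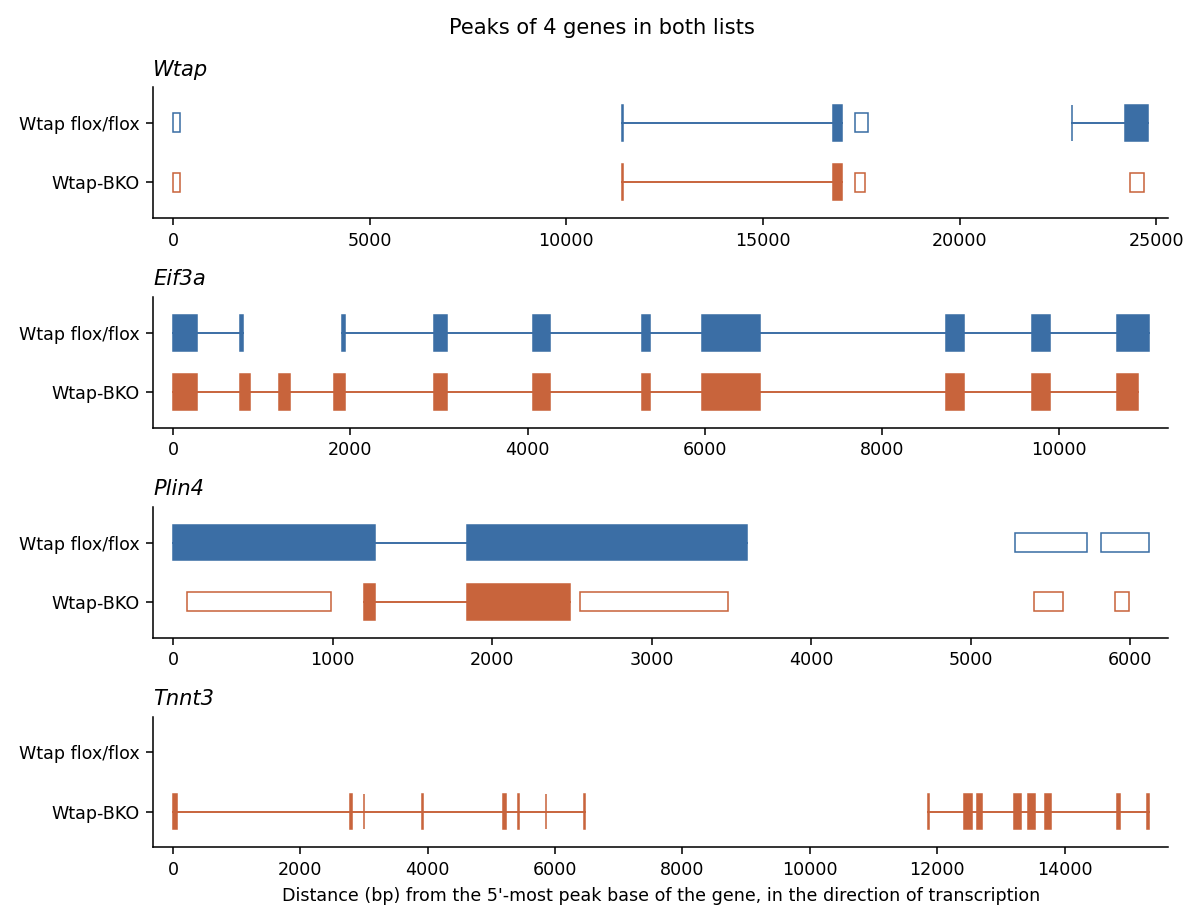
Peaks of *Wtap*, *Eif3a*, *Plin4* and *Tnnt3* in the control list (blue) and the *Wtap*-BKO list (orange), drawn to scale along the gene, with the distance (bp) from the most 5′ peak base in the direction of transcription on the x axis. Filled boxes joined by a line are the blocks of 1 spliced peak and open boxes are unspliced peaks. *Eif3a* had 8 and 2 blocks in the control list and 11 in 1 peak of the *Wtap*-BKO list, and *Plin4* had 1 control peak of 3024 bases where the *Wtap*-BKO list had 3 peaks.

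The longest spliced peaks lay on other genes. They were named for the most bases in a list, so shorter peaks in the other list are partly set by the choice. *Luzp1*, of a leucine zipper protein, had the most exonic bases of the control list, 3682 in 2 blocks, and 4 unspliced *Wtap*-BKO peaks of up to 1917 bases lay on it. *Plin4*, a lipid droplet coat protein, had 3024 bases in 2 blocks of 1757 and 1267. The *Wtap*-BKO list had 3 peaks there, of 929, 719 and 899 bases, and the one of 719 kept the exon boundary with 649 and 70 bases on its sides. The control peak had a false discovery rate listed as 0, ahead of 99.2% of its list. The log10 values of the 3 *Wtap*-BKO peaks were −211, −52.8 and −301, ahead of 99.2%, 93.5% and 99.5% of theirs. In the *Wtap*-BKO list *Filip1l*, a filamin A interacting protein, had the most bases, 3147 in 2 blocks, over unspliced control peaks of 1139 and 1229 bases. *Slfn5*, of the interferon-induced Schlafen family, had 2663 bases in 5 blocks over 3 control peaks of 539 to 1078 bases.

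Many peaks shared a false discovery rate listed as 0, and these were ordered by fold enrichment. Of the first 5 spliced peaks of each list in this order, 3 were common to both. *Aes*, a Groucho family co-repressor, had 269 bases across an intron of 1375 bp, at chr10:81559488-81561131. *Ybx1*, an mRNA-binding cold shock protein, had 388 bases across 398 bp, at chr4:119293789-119294574. *Atf5*, a transcription factor of the mitochondrial stress response, had 269 bases across 743 bp, at chr7:44815647-44816658. Each had the same ends in both lists and a false discovery rate listed as 0 in both. Their fold enrichments exceeded those of 99.6%, 98.3% and 97.4% of the control list and of 96.6%, 95.3% and 90.7% of the *Wtap*-BKO list.

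The longest intron inside a peak was common to both lists as well. *Tshz2*, a zinc finger transcription factor gene, had 211 bases in the control list and 121 in the *Wtap*-BKO list on either side of the same 249746 bp. *Ext1*, which elongates heparan sulphate, had 540 and 510 bases around 148146 bp. The *Nfib* peak across 199735 bp was in the *Wtap*-BKO list alone, with 241 bases, and the *Lyrm4* peak across 112898 bp in the control list alone, with 269. Gaps between blocks had a median of 1263 bp over 3309 different gaps of the control list and of 1098 bp over 4839 of the *Wtap*-BKO list. Over 10000 bp there were 305 and 351 of them, and under 30 bp, shorter than usual for an intron, 33 and 45.

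Gaps were compared as a measure of which exon boundaries the lists shared. Both lists held 1983 gaps with the same 2 ends. These were 59.9% of the control gaps (interval 58.2% to 61.6%) and 41.0% of the *Wtap*-BKO gaps (interval 39.6% to 42.4%). Most boundaries crossed by a *Wtap*-BKO peak were thus crossed by no control peak.

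Whether a peak had a counterpart was then asked of each list. A peak was counted as found if a peak of the other list, on the same strand, covered 1 or more of its exonic bases. Over all peaks 67.8% of the control list and 68.0% of the *Wtap*-BKO list were found. Spliced control peaks were found more often than this, 2252 of 2840 (79.3%, interval 77.8% to 80.7%), against 65.8% of unspliced ones, a difference of 13.5 percentage points (interval 11.8 to 15.2). Spliced *Wtap*-BKO peaks were found less often, 2284 of 3703 (61.7%, interval 60.1% to 63.2%), against 69.6% of unspliced ones, a difference of −7.93 (interval −9.67 to −6.21). Seen from the other side, 9.94% of control peaks without a counterpart were spliced, and 23.7% of *Wtap*-BKO peaks without one, while among peaks with a counterpart the shares were 18% and 18%. The numbers of spliced peaks found were near each other. The opposite signs are thus not separate from the higher share of spliced peaks in the *Wtap*-BKO list.

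Longer and stronger peaks are found more easily, so the comparison was repeated among peaks of like length and rank. In the control list the difference was 16.3 percentage points for peaks of 150 or fewer bases, 14.2 for those up to 300, 4.21 for those up to 600 and 0.343 for longer ones. In the *Wtap*-BKO list it was −20.5, −13.1, −4.22 and −0.0762. In both lists the interval for peaks over 600 bases included 0. Of the shortest *Wtap*-BKO peaks 22.8% of the spliced and 43.3% of the unspliced ones were found. Averaged over the length classes, the differences were 9.68 (interval 8.10 to 11.2) and −11.2 (interval −12.8 to −9.73). Averaged over length and false discovery rate together, they were 8.20 and −13.0. When any peak of the other list on the same gene was enough, the overall differences shrank to 5.07 and −1.09, the latter with an interval from −2.28 to 0.0396.

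By false discovery rate, the strongest of the 5 parts of the *Wtap*-BKO list showed no difference, with 97.5% of spliced and 97.5% of unspliced peaks found (difference 0.0676, interval −1.22 to 1.10). In the second part it was −9.88 (interval −13.0 to −6.96), with 79.1% against 89.0%. In the third part the difference was −23.0, with 48.8% against 71.8%, and in the weakest −17.9, with 21.1% against 39.0%. In the control list the difference was 2.52 in the strongest part and 13.4 in the weakest.

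**Figure D3:**
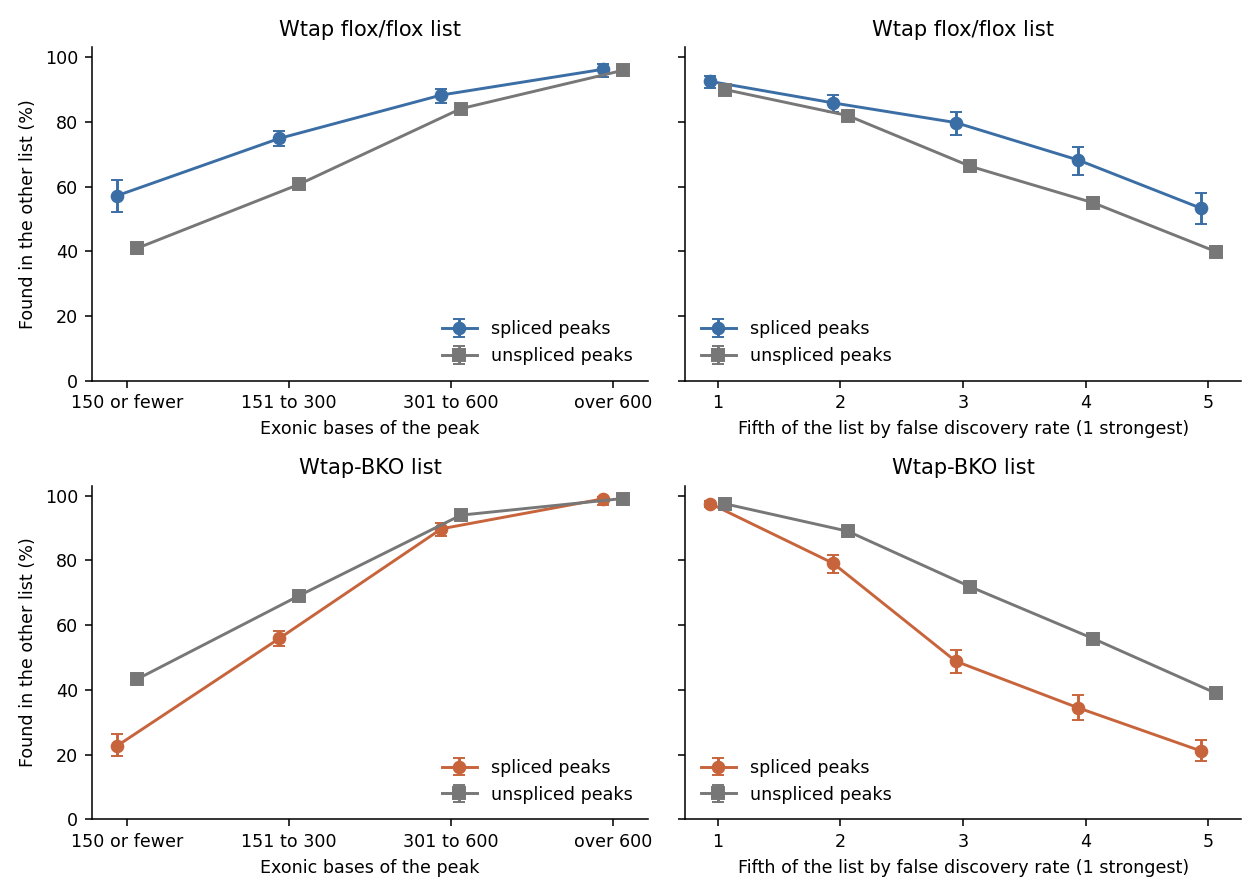
Share of peaks found in the other list (%), with 95% Wilson intervals, for spliced peaks (coloured circles) and unspliced peaks (grey squares), by exonic length in bases (left) and by 5 parts of the list by false discovery rate (right), for the control list (top) and the *Wtap*-BKO list (bottom). Spliced peaks lie above unspliced ones in the control list and below them in the *Wtap*-BKO list, and the lines meet among peaks over 600 bases and, in the *Wtap*-BKO list, in the strongest part.

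In both lists, peaks of 4 or more blocks were found more often than peaks of 2 blocks, and were also longer. Control peaks of 2 blocks were found in 77.6%, of 3 in 88.5% and of 4 or more in 95.8%. Their median lengths were 269.5, 269 and 463.5 exonic bases. For *Wtap*-BKO peaks the shares were 60.1% (interval 58.3% to 61.9%), 63.3% (interval 59.3% to 67.0%) and 77.4%, at medians of 210, 241 and 418 bases. Block numbers were not compared among peaks of like length. The length of the intron mattered less. Below 500 bp of intron 78.0% of control and 57.7% of *Wtap*-BKO peaks were found, and above 10000 bp 78.5% and 65.2%. Peaks whose smallest block was under 10 bases were found in 76.9% and 58.1%, and those with 30 or more bases in every block in 80.5% and 62.6%.

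What lay on a spliced peak in the other list was also sorted by its gaps. For 1591 control peaks (56.0%) the *Wtap*-BKO list held every gap, for 72 some of the gaps, and 589 (20.7%) were overlapped by peaks that crossed none of their boundaries. No counterpart was found for 377 (13.3%) on genes with another *Wtap*-BKO peak and 211 (7.43%) on genes with none, where 11.8% of all control peaks lay on such genes. For *Wtap*-BKO peaks the control list held every gap of 1356 (36.6%) and some gaps of 295, and 633 (17.1%) were overlapped without a gap. No counterpart was found for 974 (26.3%) on genes with another control peak and 445 (12%) on genes with none, against 11.1% of all *Wtap*-BKO peaks on such genes. The lower share found was thus mostly on genes that had a control peak elsewhere.

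Pairs of peaks that lay on each other and on no further peak were set side by side. In 1118 pairs both were spliced with the same gaps, and the *Wtap*-BKO peak was shorter in 33.0%, of equal length in 25.1% and longer in 41.9%, with a median difference of 0 bases. In 8139 pairs of unspliced peaks the *Wtap*-BKO peak was shorter in 51.6% and longer in 36.7%, with a median difference of −29 bases. Spliced pairs were kept only where the *Wtap*-BKO peak still crossed the same boundaries, which leaves out peaks that ended short of one, so their lengths are not set against those of unspliced pairs. All blocks were identical in 241 spliced pairs (21.6%), among them those of *Wtap*, *Aes*, *Ybx1* and *Atf5* above.

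Along the gene, the centres of spliced peaks lay further from the 3′ end. A spliced peak cannot lie wholly in a last exon, so part of this is set by how the peaks were chosen. A peak's place was that of the middle of its exonic bases within the span of its gene, for genes of at least 3000 bp, and the gene table gave no stop codons. Within 1000 bp of the 3′ end lay 21.7% of all placed control peaks and 19.3% of all placed *Wtap*-BKO peaks. Of spliced peaks it was 10.9% of the control list, 12.8 percentage points below unspliced ones at 23.7%, and 7.09% of the *Wtap*-BKO list, 15.4 below unspliced ones at 22.5%. Within 1000 bp of the 5′ end lay 18% of spliced and 10.2% of unspliced control peaks, and 19.5% and 11.4% of *Wtap*-BKO peaks.

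Spliced peaks of the *Wtap*-BKO list lay further upstream than those of the control list. The median centre lay at 70.4% of the gene's span for spliced control peaks and at 60.1% for spliced *Wtap*-BKO peaks, but at 88.0% and 87.7% for unspliced ones. Spliced *Wtap*-BKO peaks without a counterpart had theirs at 53.9%, and 3.53% of them lay near the 3′ end, against 9.35% of those found. In the control list the spliced peaks without a counterpart lay at 73.9%, near those found at 69.5%.

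By place, spliced *Wtap*-BKO peaks were not found less often everywhere. Near the 3′ end 80.7% of spliced and 68.7% of unspliced ones were found, a difference of 11.9 (interval 6.20 to 16.8). Near the 5′ end the difference was 2.62 (interval −1.90 to 7.05). Further than 1000 bp from both ends, where 2463 spliced *Wtap*-BKO peaks lay, 58.8% of spliced and 73.5% of unspliced peaks were found, a difference of −14.7 (interval −16.8 to −12.5). In the control list the differences at the 3 places were 15.4, 13.7 and 12.1.

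**Figure D4:**
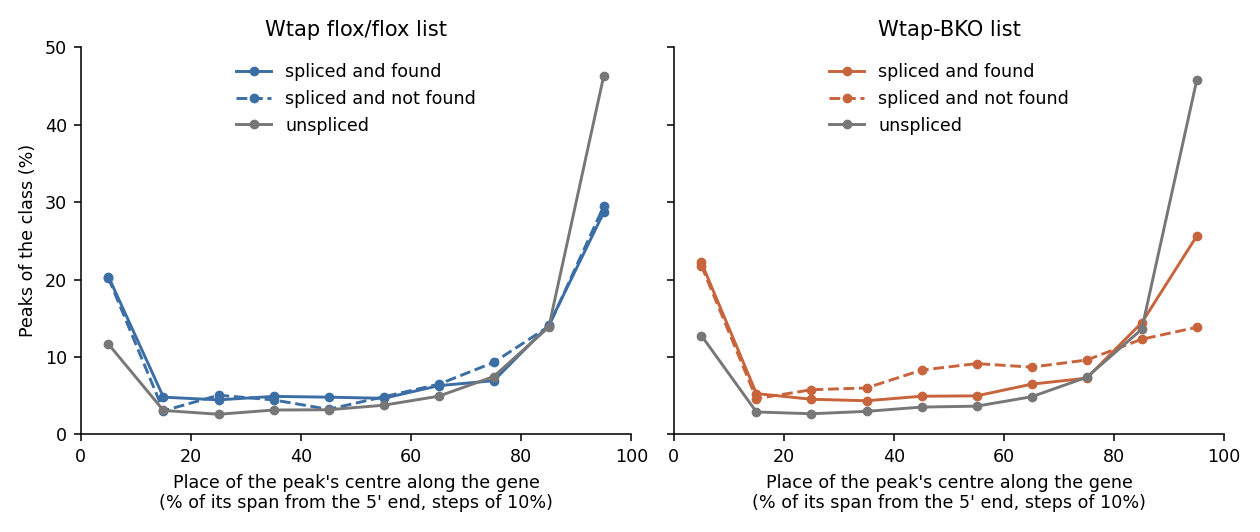
Share of peaks (%) by the place of their centre along the gene (% of its span from the 5′ end, in steps of 10%), for spliced peaks found in the other list (solid), spliced peaks not found (dashed) and unspliced peaks (grey), in the control list (left) and the *Wtap*-BKO list (right). In the last step lay 46.4% of unspliced control peaks and 13.8% of spliced *Wtap*-BKO peaks that were not found, whose line runs above the others through the middle of the gene.

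By gene, 2445 of 9732 genes with a control peak had a spliced one (25.1%), and 2990 of 9713 in the *Wtap*-BKO list (30.8%). Both lists had a spliced peak on 1619 genes, 66.2% of those of the control list and 54.1% of those of the *Wtap*-BKO list. A single spliced peak was carried by 86.1% and 81.0% of these genes, and 3 or more by 46 and 114. Of the genes with 4 or more in a list, named after their values were seen, *Myh9*, non-muscle myosin, had 5 in both. *Top1*, topoisomerase I, had 1 and 5, and *C3*, complement component 3, had 0 and 4, while *Rnf44*, a ring finger protein, had 4 and 1 and *Rbm33*, an RNA-binding protein, 4 and 2.

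Genes with a spliced peak in 1 list alone are named after their values were seen. The gene lists were read against 15.4% of all control and 19.8% of all *Wtap*-BKO peaks. Splicing factors had the largest number of spliced peaks among the 13 lists. Of 90 control peaks on SR proteins and other splicing factors 32 were spliced (35.6%, interval 26.4% to 45.8%), and 49 of 117 in the *Wtap*-BKO list (41.9%, interval 33.3% to 50.9%). Of the spliced peaks 31 of 32 (96.9%) and 35 of 49 (71.4%) were found, against 79.3% and 61.7% of all spliced peaks, and of the unspliced peaks on these genes 87.9% and 72.1%. A spliced peak was present in both lists on 19 genes, in the control list alone on *U2af2* and in the *Wtap*-BKO list alone on 6. *Hnrnpm*, an hnRNP that binds GU-rich RNA, had 3 and 4 spliced peaks, and its peak of 5 blocks and 480 bases had the same ends in both lists. *Sf3b2*, of the U2 snRNP, had 2 and 4, of which 2 *Wtap*-BKO peaks had no counterpart. *Hnrnpu*, a nuclear scaffold hnRNP, had 2 and 4, of which the *Wtap*-BKO ones were not all found. *Sf1*, which recognises the branch point, had 3 and 3, and all of these were found.

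Of the m6A machinery, 14 of 53 control peaks (26.4%, interval 16.4% to 39.6%) and 15 of 51 *Wtap*-BKO peaks (29.4%, interval 18.7% to 43.0%) were spliced. The *Wtap*-BKO interval holds the 19.8% of all peaks. Of these spliced peaks 13 and 12 were found, and of the unspliced ones 27 of 39 and 31 of 36. The same 10 genes had a spliced peak in both lists, and *Cbll1*, of the writer complex, in the control list alone. The readers *Ythdf2* and *Ythdf3* had their long spliced peak in both lists. That of *Ythdf3* covered 1738 and 1618 bases around 8530 bp of intron, and that of *Ythdf2* 1554 and 1167 around 17184 bp. The *Ythdf2* peak had log10 false discovery rates of −57.9, ahead of 91.0% of the control list, and −44.6, ahead of 91.9% of the *Wtap*-BKO list. *Ythdc1*, the nuclear reader, had 2 in each list. The first had a fold enrichment above that of 99.0% of the control list and 75% of the *Wtap*-BKO list with the same 420 bases. *Hnrnpa2b1* had the same peak of 4 blocks and 360 bases in both lists, and 2 further *Wtap*-BKO peaks of 180 and 150 bases without a counterpart. The writers *Mettl3* and *Mettl14* and the reader *Ythdc2* had no peak in either list, and those of *Fto*, an eraser, and *Ythdf1* were unspliced.

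Brown adipocyte genes had shares below those of all peaks, within the counting error. Of 98 control peaks on them 14 were spliced (14.3%, interval 8.70% to 22.6%), and 10 of 86 in the *Wtap*-BKO list (11.6%, interval 6.44% to 20.1%), both intervals holding the share of all peaks. Counterparts were found for 10 of 14 spliced and 58 of 84 unspliced control peaks, and in the *Wtap*-BKO list for 5 of 10 spliced and 68 of 76 unspliced ones. *Pparg*, the nuclear receptor of adipogenesis, had a spliced peak in each list, but not the same one. The control peak covered 866 bases across 16636 bp of intron at chr6:115472868-115490369, and 2 unspliced *Wtap*-BKO peaks of 210 and 300 bases lay on either side of its boundary. Its log10 false discovery rate was −204, ahead of 98.4% of the control list. Those of the 2 unspliced peaks were −8.02 and −94.9, ahead of 57.5% and 97.3% of the *Wtap*-BKO list. The *Wtap*-BKO peak lay upstream at chr6:115362319-115366064, with 150 bases and a log10 false discovery rate of −3.12, stronger than 21.7% of its list.

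*Prdm16*, a transcription factor of brown fat, had 0 spliced peaks among 8 in the control list and 1 in the *Wtap*-BKO list, and *Ucp1*, the uncoupling protein, 0 among 1 and 2. *Ppargc1a*, the coactivator of mitochondrial biogenesis, had 0 of 3 and 1 of 4, the latter across 864 bp of intron and without a counterpart. *Pank1*, of coenzyme A synthesis, had 2 in the control list, with 269 bases in 2 blocks and 686 bases in 4 blocks, and neither was found. *Adipoq*, the adipokine adiponectin, had a spliced peak in both lists around a gap of 4 bp, and *Klf11*, a regulator of brown and beige fat genes, 1 in each of 660 and 690 bases.

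Genes of mitochondrial metabolism had higher shares of spliced peaks than all peaks, most so in the *Wtap*-BKO list. Among nuclear genes of oxidative phosphorylation, 14 of 52 control peaks (26.9%, interval 16.8% to 40.3%) and 27 of 62 *Wtap*-BKO peaks (43.5%, interval 31.9% to 55.9%) were spliced, on 11 genes in both lists and on 14 in the *Wtap*-BKO list alone. In the control list 12 of 14 spliced and 26 of 38 unspliced peaks were found. In the *Wtap*-BKO list it was 20 of 27 spliced (74.1%) and 18 of 35 unspliced ones (51.4%), unlike the list as a whole. The direction was the same on insulin signalling genes (76% against 69.4%), cytosolic ribosomal protein genes (100% against 50%) and macrophage markers (42.9% against 40%). On the other gene lists with spliced *Wtap*-BKO peaks it was the reverse. *Atp5j2*, of the ATP synthase, had the same 3 blocks and 239 bases in both. Its log10 false discovery rates were −162, stronger than 97.8% of the control list, and −278, stronger than 99.5% of the *Wtap*-BKO list. *Atp5g3*, its c subunit, had the same 3 blocks and 210 bases, with −33.8, stronger than 83.4% of the control list, and −155, stronger than 98.8% of the *Wtap*-BKO list. For fatty acid oxidation 15 of 46 (32.6%) and 25 of 54 (46.3%) were spliced, of which 13 of 15 and 11 of 25 were found. Of the unspliced peaks 18 of 31 and 21 of 29 were found. *Etfdh*, which passes electrons from acyl-CoA dehydrogenases to ubiquinone, had 1 and 3, none of them found. *Acadl*, a long-chain acyl-CoA dehydrogenase, had the same peak of 121 bases in both and 1 more in the *Wtap*-BKO list. *Cd36*, a fatty acid transporter, had 210 and 270 bases around 52857 bp of intron, and 1 more *Wtap*-BKO peak without a counterpart.

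Of mitochondrial ribosomal protein genes 18 of 78 control peaks (23.1%, interval 15.1% to 33.6%) and 19 of 53 *Wtap*-BKO peaks (35.8%, interval 24.3% to 49.3%) were spliced. The control interval holds the 15.4% of all peaks. In the control list 15 of 18 spliced and 23 of 60 unspliced peaks were found, and in the *Wtap*-BKO list 13 of 19 spliced and 26 of 34 unspliced ones. *Mrpl12* had the same 178 bases in both lists, and a further control peak of 502 bases with a false discovery rate listed as 0. On this further peak lay an unspliced *Wtap*-BKO peak of 413 bases, with a log10 false discovery rate of −36.6, ahead of 89.8% of its list. Cytosolic ribosomal protein genes had 4 spliced of 16 and 4 of 20, on *Rpl13a*, *Rpl26*, *Rps19* and *Rps27l* in both lists, and all were found.

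In the insulin signalling list, 21 of 79 control peaks (26.6%) and 25 of 87 *Wtap*-BKO peaks (28.7%) were spliced, of which 19 and 19 were found. The kinase gene *Akt2* shared 1 peak of 121 bases around 1305 bp, and had 1 more of 241 bases in the control list and 1 of 240 in the *Wtap*-BKO list, neither found. *Pde3b*, which breaks down cAMP in adipocytes, had control peaks of 181 and 930 bases, and a single *Wtap*-BKO peak of 780 bases in 4 blocks ran over both.

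Genes of muscle, connective tissue and macrophages had more spliced peaks in the *Wtap*-BKO list, and more peaks of any kind. On sarcomere genes 7 of 13 control peaks (53.8%) and 19 of 37 *Wtap*-BKO peaks (51.4%) were spliced, and 5 of the 19 were found (26.3%), as were 6 of 18 unspliced *Wtap*-BKO peaks (33.3%). On collagen genes it was 3 of 25 (12%) and 16 of 50 (32.0%, interval 20.8% to 45.8%), and 4 of the 16 were found (25%), against 18 of 34 unspliced *Wtap*-BKO peaks (52.9%). *Col27a1*, a cartilage-type fibrillar collagen, had 0 and 5, and *Col6a3*, a chain of the microfibrillar collagen VI, 0 and 3, none with a counterpart. Other matrix genes had 10 of 41 and 17 of 67, with 8 of the 17 found. *Lamc1*, a laminin chain, had the same boundary in both lists with 720 and 630 bases, and another *Wtap*-BKO peak of 5 blocks without a counterpart. Macrophage markers had 2 of 12 and 7 of 27, with *C1qa*, of complement C1q, at 624 and 1040 bases in 3 blocks, and *Cd163*, a haemoglobin scavenger receptor, with 1 and 3. T/B lymphocyte markers had 0 of 5 and 0 of 14.

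The values were also taken without these marker genes. With the muscle, collagen, matrix, macrophage and lymphocyte genes left out, a choice made after the data were seen, 15.4% of control and 19.7% of *Wtap*-BKO peaks were spliced, and 62.1% of the spliced *Wtap*-BKO peaks were found. This kept 2818 of 2840 spliced control and 3644 of 3703 spliced *Wtap*-BKO peaks, so the shares could move only little. On genes with a peak in both lists, chosen likewise, 70.1% of spliced *Wtap*-BKO peaks were found. The difference from unspliced *Wtap*-BKO peaks was −8.03 percentage points on these genes (interval −9.77 to −6.32). Without the marker genes it was −7.69 (interval −9.44 to −5.96).

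**Figure D5:**
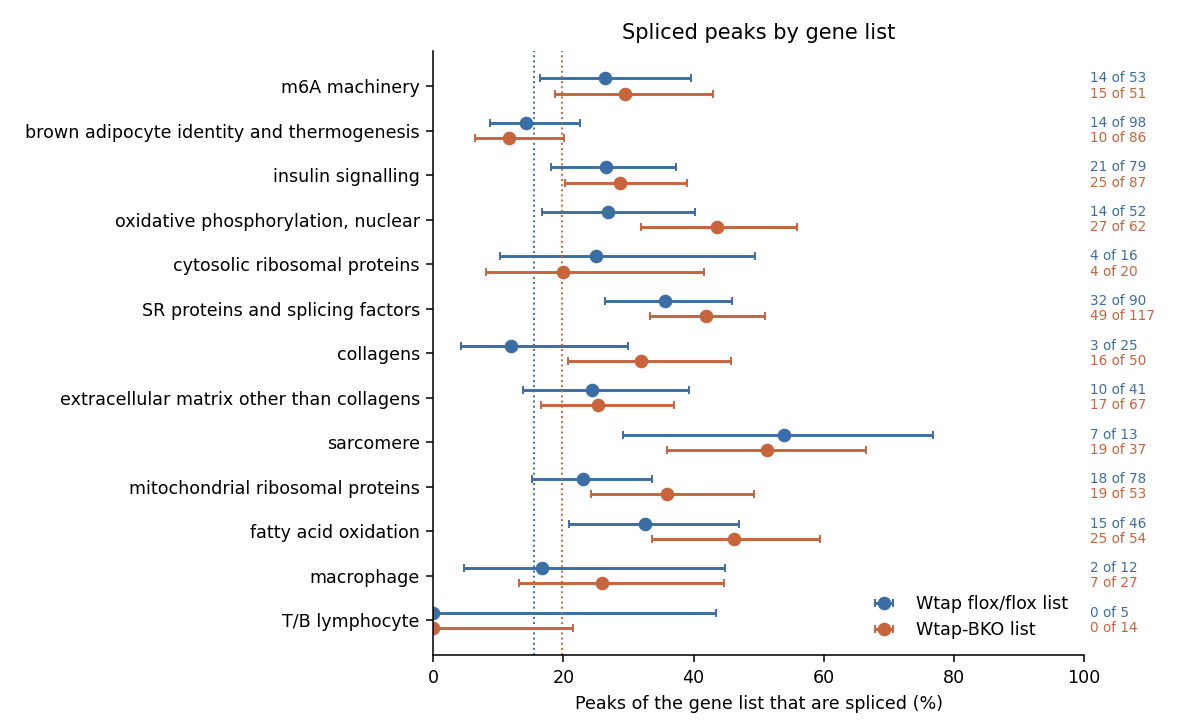
Share of peaks that are spliced (%) on each of 13 gene lists, with 95% Wilson intervals, in the control list (blue) and the *Wtap*-BKO list (orange). Dotted lines mark all peaks of each list, at 15.4% and 19.8%, and the counts at the right are spliced peaks of all peaks. Splicing factors lie to the right of the lines, and the intervals of brown adipocyte genes reach them.

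Of the spliced control peaks without a counterpart, the 5 with the smallest false discovery rates are given next. *Ogdh*, a subunit of the 2-oxoglutarate dehydrogenase complex of the citric acid cycle, had 361 bases across 4237 bp at chr11:6292688-6297285, with a false discovery rate listed as 0. *Mdh2*, mitochondrial malate dehydrogenase, had 240 bases across 299 bp with a log10 false discovery rate of −311. *Lipe*, hormone-sensitive lipase, had 329 bases at −275, *Thrsp*, a lipogenic gene, 240 bases at −253, and *Crls1*, cardiolipin synthase, 268 bases at −220. Their fold enrichments were modest, from 1.58 in *Thrsp* to 4.49 in *Ogdh*, higher than 1.22% to 33.1% of the control list. Each gene but *Crls1* had another *Wtap*-BKO peak. *Lipe* also had a control peak of 5 blocks and 1405 bases, which met a *Wtap*-BKO peak of 5 blocks and 1226 bases with every gap in common, so that 1 spliced peak of the gene was found and the other was not.

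Besides *Crls1*, the strongest spliced control peaks on genes with no *Wtap*-BKO peak at all were on *Gpi1*, a glycolytic isomerase (419 bases, log10 false discovery rate −170), *Gde1* (387 bases, −166), *Tmem106b*, a lysosomal membrane protein (330 bases, −110), and *Coq9*, of coenzyme Q synthesis (390 bases, −98.9). On all of these genes the spliced peak was the only control peak.

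The strongest spliced *Wtap*-BKO peaks without a counterpart had weaker values within their list. *Gpd1*, cytosolic glycerol-3-phosphate dehydrogenase, had 90 bases across 503 bp with a log10 false discovery rate of −65.7, stronger than 95.3% of the list. *Fth1*, ferritin heavy chain, had 180 bases at −44.7, and *Sparc*, a matrix glycoprotein, 210 bases in 4 blocks at −42.8. *Atp5a1*, of the ATP synthase, had 210 bases at −38.2, and *Col3a1*, the type III collagen of fibrous tissue, 211 bases at −37.0. All of these genes had a control peak elsewhere. On genes with no control peak at all, the strongest were on *Rgs10* (325 bases, −33.6), a regulator of G protein signalling, *Tnnt3*, *Cxcl9* (329 bases in 3 blocks, −30.2), an interferon-induced chemokine, *Itsn1* (361 bases, −30.2), of endocytosis, and *Mrpl2* (211 bases, −24.9), of the mitochondrial ribosome.

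Assignment to a gene was uncertain for few of these peaks. On the same strand, 110 spliced control peaks (3.87%) and 129 *Wtap*-BKO peaks (3.48%) overlapped a peak that their own list gives to a different gene. *Pakap* and *Akap2*, among the first 5 of the control list in the order by false discovery rate and fold enrichment, with 1381 and 1376 bases across 6541 bp, overlapped each other, and their reads cannot be told apart. No gene symbol was given for 5.11% and 3.24% of spliced peaks, and mitochondrial transcripts, which have no introns, had 0 spliced peaks among 8 and 12.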

How the data were processed

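The data were 2 lists of m6A peaks from iBAT, 1 of *Wtap* flox/flox (control) and 1 of *Wtap*-BKO mice, each called by the authors on 1 pooled IP against 1 pooled input. The submitters' processing notes name fastp 0.19.11, BWA 0.7.12, HOMER 4.9.1 and GRCm38.p6, without saying which step each served. BWA does not split reads over introns, and how reads at exon ends were mapped was not tested. The methods name MACS2 as peak caller, while the layout in blocks on Ensembl genes is that of exomePeak. The library kit is not stated to mark strand, so the strand of a peak is that of its gene, and antisense reads cannot be told apart. In the deposited files each peak has a start, an end and blocks, a p-value, its log10 and that of the false discovery rate as scores by the authors, and a fold enrichment, the authors' ratio of IP over input. The number of reads is not held in the lists, so the depth and precision behind a peak are unknown. Values listed as −Inf were ranked first.

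Blocks, exonic bases and gaps were computed in Python 3.11.15 with numpy 2.4.6, pandas 2.3.3, scipy 1.17.1 and statsmodels 0.14.6, and drawn with matplotlib 3.10.9. Positions are 1-based. The matching of blocks was tested on simulated data. Genes were placed through a RefSeq gene table of GRCm38.p6 by symbol and chromosome, which matched 90.3% of control and 90.6% of *Wtap*-BKO peaks. Members, gene lists and rules were chosen with earlier results of these data known. Named genes were those the MeRIP-seq text discusses with the m6A machinery; in each list the 5 spliced peaks with the most blocks, the smallest false discovery rate, the longest intron span, the most bases, the smallest false discovery rate without a counterpart, and the same where the other list has no peak on the gene; and up to 4 members of each of 13 gene lists. Alternatives were a false discovery rate under 1e-05, at least 50% of bases shared, any peak on the same gene, blocks under 10 bases dropped, strand ignored and overlapping genes left out. Sequences were not analysed here, and a few genes that these rules name are not reported here.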

Additional observations from a re-analysis of the deposited data

Results flagged for a closer look

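The share of spliced peaks found in the other list, less that of unspliced peaks, had opposite signs in the 2 lists. It was 13.5 percentage points in the control list and −7.93 in the *Wtap*-BKO list. Averaged over classes of exonic length it was 9.68 and −11.2. Over all lengths, 2252 spliced control and 2284 spliced *Wtap*-BKO peaks were found, and 10231 and 10434 unspliced ones. With numbers this near, the opposite overall signs largely restate that more peaks of the *Wtap*-BKO list were spliced. With 1 pooled sample per genotype, the difference between the lists was not tested.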

How the results depend on the processing

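The 108 recomputed values held counts, shares and medians, which cannot change sign, and differences, of which none (0) did. The split by place was not among them, and there the *Wtap*-BKO difference was 11.9 percentage points near the 3′ end. Of the alternatives, 43 of the 60 planned and 34 of the 48 added stayed within the counting interval, or for numbers of peaks within 1.5 times. The others moved as follows, and the cause was not tested. Under a false discovery rate of 1e-05, 17.7% of control and 22.8% of *Wtap*-BKO peaks were spliced, with medians of 331 and 271 bases. Of spliced control peaks 76.3% were found, and the *Wtap*-BKO difference was −11.9 percentage points. With at least 50% of bases shared, 71.1% and 55.4% of spliced peaks were found. With any peak on the same gene, 92.5% and 88.0% were found. The differences were then 5.07 and, within length classes, 3.63 in the control list, and −1.09 (interval −2.28 to 0.0396) and −2.26 in the *Wtap*-BKO list. With blocks under 10 bases dropped, 12.9% and 17.5% of peaks were spliced, and 39.3% of *Wtap*-BKO gaps were shared. Added after the data were seen were 4 settings. On genes with a peak in both lists, 16.2% of control peaks were spliced and 85.7% and 70.1% of spliced peaks found, the control differences were 10.5 and 7.80, and 64.3% and 46.2% of gaps were shared. More than 1000 bp from the 3′ end, 18.1% and 24.0% were spliced, 59.0% of spliced *Wtap*-BKO peaks were found, the *Wtap*-BKO differences were −11.9 and −14.3, and 61.8% and 39.4% of gaps were shared. Ignoring strand, leaving out overlapping genes, leaving out marker genes and joining blocks across gaps under 30 bases moved no value beyond its interval. Leaving out marker genes removed few spliced peaks, so it could move the values only little. No paired analysis was possible because each genotype has 1 pooled sample and no test was made, and no replicate could be left out. Read depth and transcript level are unknown.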
